A study of Mus musculus with 6 samples.

Results

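The genes described here are the mouse major histocompatibility complex (MHC) genes of class I and class II, measured by RNA-seq in livers from 2 injury models. Members were chosen by symbol alone, as genes whose names begin with H2-A, H2-Bl, H2-D, H2-E, H2-K1, H2-L, H2-M, H2-O, H2-Q or H2-T. The rule found 34 of the 18444 genes listed in at least 1 of the 6 libraries: 3 classical class I genes, 22 nonclassical class I genes and 9 class II genes. Another 2 genes with an H2 symbol lay outside the rule and were not used.

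The study asked whether JT003, a peptide agonist of both adiponectin receptors, acts on diet-induced steatohepatitis and on liver fibrosis caused by carbon tetrachloride (CCl4). All mice were male C57BL/6, with an age of 6 to 8 weeks on the labels. In the diet model, mice received standard diet (SD) or high fat diet (HFD) for 16 weeks, and the third group received HFD with JT003 at 0.5 mg/kg daily by intraperitoneal injection for 4 weeks. In the fibrosis model, mice were injected every 3 days for 6 weeks with corn oil, or with 20% CCl4 in corn oil, at 5 ml/kg, and the third group received CCl4 with JT003 at 0.5 mg/kg for 3 weeks. Each of the 6 conditions was represented by 1 library, and whether a library came from 1 mouse or from a pool was not stated. The 4 comparisons are therefore between 2 libraries each, not between 2 conditions, with no replicate check apart from pooled CCl4 counts described below. Total counts per library were 20184557 for SD, 19724517 for HFD, 19849140 for HFD plus JT003, 19409752 for corn oil, 20156841 for CCl4 and 19374236 for CCl4 plus JT003. Albumin, the defining hepatocyte gene, took between 5.29% and 7.62% of the counts in each library.

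Class I molecules present peptides from inside the cell to cytotoxic T cells and are made by nearly all nucleated cells, hepatocytes included. Nonclassical class I molecules resemble them but vary little between individuals, and some bind receptors of natural killer cells or are secreted. Class II molecules present peptides taken up from outside to helper T cells and are made mainly by dendritic cells, B cells and macrophages, which in liver include the resident Kupffer cells.

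The liver-secreted nonclassical gene H2-Q10 had the highest level of all members in every library. Its FPKM (fragments per kilobase of transcript, scaled to the library's total, a level that allows genes to be compared) was 1102 in SD, 869 under HFD, 781 under HFD with JT003, 1321 in corn oil, 1617 after CCl4 and 1517 after CCl4 with JT003. H2-Q10 alone made up between 33.6% (HFD plus JT003) and 49.5% (corn oil) of the summed FPKM of the 34 members. H2-K1, H2-D1, H2-T23 and H2-T22 followed in the same order in all 6 libraries. Class II genes lay far below: their summed FPKM was 49.0 in SD and 111 in HFD plus JT003, and 31.4 in corn oil and 98.3 in CCl4 plus JT003. Of the 34 members, 25 had at least 10 counts in at least 1 library and 9 did not.

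**Figure D1:**
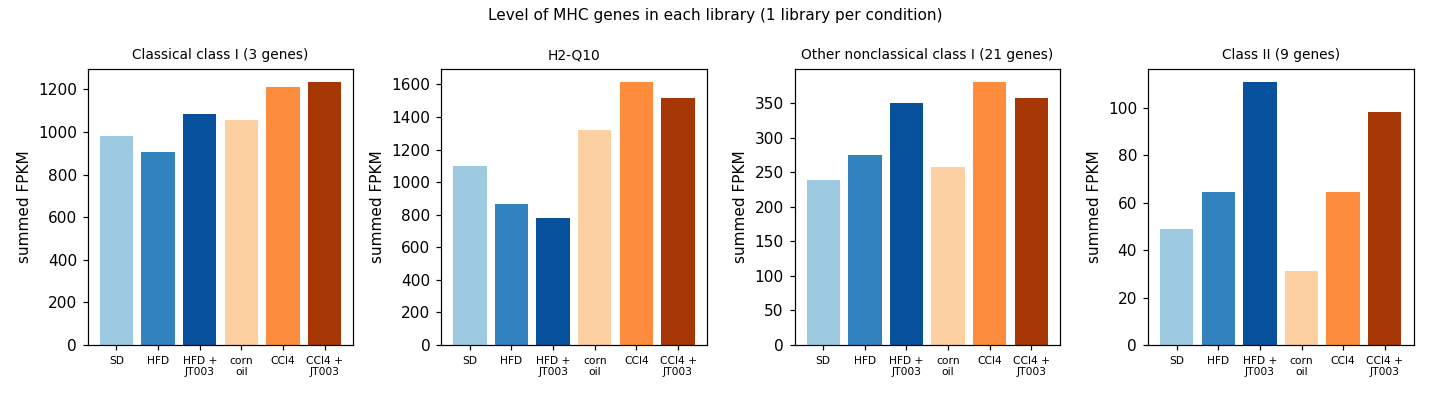
Summed FPKM of the classical class I genes, of H2-Q10, of the other nonclassical class I genes and of the class II genes (vertical axes, each from 0) in the 6 libraries (horizontal axes), with 1 bar per library and no error bars because each condition has 1 library. The class II bars are highest in the library with JT003 of each model, at 111 and 98.3.

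A gene was called past 2-fold when it had at least 10 counts in 1 of the 2 libraries, its log2 ratio was at least 1 in size, and its exact 95% interval left out 0. The intervals cover counting error only, since sequencing reads are not independent molecules and mice differ. For HFD over SD, 1 of 23 members tested was past 2-fold higher (H2-Bl) and 2 were lower (H2-Q8 and H2-Q2), where 5.44% of all 13335 genes tested were higher and 3.95% lower. For the HFD library with JT003 over that without, called JT003 on HFD below, 2 of 23 members were higher (H2-Q8 and H2-DMb2) and 0 lower, beside 2.07% and 1.99% of all 13453 genes. For CCl4 over corn oil, 2 of 22 members were higher (H2-Q6 and H2-DMa) and 1 lower (H2-Q8), beside 8.08% and 4.59% of 13602 genes. For the CCl4 library with JT003 over that without, called JT003 on CCl4, 1 of 23 members was higher (H2-Oa) and 2 were lower (H2-Q7 and H2-Q8), beside 4.25% and 4.08% of 13785 genes. With total counts as the scaling, H2-Ab1, H2-DMb1, H2-Q1, H2-Q7 and H2-T22 also came past 2-fold for CCl4 over corn oil and H2-Ob for JT003 on CCl4, while H2-Q8 was under 2-fold in both injury comparisons. These counts are small, and with so few members a share near the background is not a result about them. Both comparisons of the diet model use the HFD library and both of the fibrosis model use the CCl4 library, so they are not independent of each other.

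A further measurement bears on the CCl4 library. One of the authors' comparison tables holds a CCl4 column whose total is 2.97 times that of the CCl4 library and which lies below it in 24 genes, by at most 0.99 counts. It appears, from these values, to be a sum over several CCl4 libraries that include this one. If so, subtracting the CCl4 library leaves the counts of the other CCl4 libraries, called the remaining CCl4 livers below. This subtraction was added after seeing the data, and which libraries the column holds was not stated. Between these remaining counts and the CCl4 library, 4.35% of 14545 genes were past 2-fold, and 0 of the 25 members tested were.

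Among the classical class I genes, H2-K1 encodes the K heavy chain. Its FPKM was 642 in SD, 567 under HFD, 695 under HFD with JT003, 721 in corn oil, 722 after CCl4 and 761 after CCl4 with JT003. The lowest library was HFD. The log2 ratios of H2-K1 counts were -0.30 (-0.33 to -0.28) for HFD over SD, 0.28 (0.25 to 0.31) for JT003 on HFD, -0.24 (-0.26 to -0.21) for CCl4 over corn oil and 0.01 (-0.01 to 0.04) for JT003 on CCl4. With total counts the value for CCl4 over corn oil was 0.00, and with the remaining CCl4 livers the latter pair was -0.71 (-0.73 to -0.68) and 0.47 (0.45 to 0.50). H2-D1, which encodes the D heavy chain, had 339 in SD, 339 under HFD, 391 under HFD with JT003, 334 in corn oil, 490 after CCl4 and 475 after CCl4 with JT003. The 2 libraries with CCl4 had the highest FPKM of H2-D1. H2-L, counted as the third classical gene by its symbol alone, had 5 counts in CCl4 and 0 in each of the other libraries. It had no RefSeq gene entry, and whether these reads came from another class I gene was not tested.

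On the scale of log2 ratios, the summed classical class I counts lay within 0.25 of 0 in all 4 comparisons of single libraries. The ratio was -0.24 for HFD over SD (interval -0.26 to -0.21) and 0.25 for JT003 on HFD (0.22 to 0.27). It was -0.03 for CCl4 over corn oil (-0.06 to -0.01) and -0.04 for JT003 on CCl4 (-0.06 to -0.02). Intervals this narrow reflect depth alone: the same sum differed by -0.40 (-0.42 to -0.38) between the remaining CCl4 livers and the CCl4 library, more than in any of the 4 comparisons. With total counts as the scaling, the ratio for CCl4 over corn oil was 0.20 and that for JT003 on CCl4 was 0.03, so neither direction held. With the remaining CCl4 livers these were -0.45 (-0.47 to -0.43) and 0.37 (0.35 to 0.39). That scaling moved the median log2 ratio of all genes tested to 0.13 for HFD over SD and 0.24 for CCl4 over corn oil, against 0.00 and 0.01. H2-D1 had log2 ratios of -0.12, 0.19, 0.31 and -0.11 in the order of comparisons above, and with total counts the value for HFD over SD was 0.00. The latter pair turned to -0.03 (-0.06 to 0.00) and 0.22 (0.19 to 0.25) with the remaining CCl4 livers.

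Class I heavy chains need the light chain B2m and a loading machinery in the endoplasmic reticulum. B2m counts were 18869 in SD, 23890 under HFD, 27376 under HFD with JT003, 22019 in corn oil, 23838 after CCl4 and 26789 after CCl4 with JT003. Counts were highest with JT003 in each model, with log2 ratios of 0.17 (0.15 to 0.20) over HFD and 0.16 (0.13 to 0.18) over CCl4, or 0.42 (0.40 to 0.45) over the remaining CCl4 livers. Tap1, a subunit of the peptide transporter, had 554, 805, 740, 381, 403 and 453 counts in the same order of libraries. None of the 9 genes of class I assembly and loading (B2m, Tap1, Tap2, Tapbp, Tapbpl, Calr, Canx, Pdia3 and Erap1) was past 2-fold in any of the 4 comparisons. Of all genes tested, between 1.99% and 8.08% were, by comparison and direction. All 9 had positive log2 ratios for HFD over SD, with a median of 0.45 beside 0.00 over all genes tested. Their medians were -0.01 for JT003 on HFD, 0.03 for CCl4 over corn oil and -0.13 for JT003 on CCl4, the latter pair 0.01 and -0.25 with the remaining CCl4 livers.

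The immunoproteasome cuts proteins into peptides suited to class I. Psmb9, one of its catalytic subunits, rose from 166 counts in SD to 370 in HFD, a log2 ratio of 1.06 (0.80 to 1.34). It was the only 1 of 5 genes of the immunoproteasome and its activator PA28 past 2-fold in any comparison. For HFD over SD, 5.44% of all genes tested were higher. Counts of Psmb9 were 309 in HFD plus JT003, 184 in corn oil, 232 after CCl4 and 227 after CCl4 with JT003. Psmb8, another catalytic subunit, had 367 counts in SD, 496 under HFD, 557 under HFD with JT003, 341 in corn oil, 488 after CCl4 and 480 after CCl4 with JT003. The medians of the 5 genes were 0.34, 0.13, 0.13 and -0.03 in the 4 comparisons, beside 0.00, 0.00, 0.01 and -0.01 over all genes tested. With the remaining CCl4 livers the latter pair was 0.01 and 0.09, beside 0.03 and -0.02.

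Among the nonclassical genes, H2-Q10 had log2 ratios of -0.47 (-0.49 to -0.44) for HFD over SD, -0.17 (-0.19 to -0.14) for JT003 on HFD, 0.05 (0.03 to 0.07) for CCl4 over corn oil and -0.16 (-0.18 to -0.14) for JT003 on CCl4. The remaining CCl4 livers lay -0.31 (-0.33 to -0.30) from the CCl4 library, a larger difference than 3 of these 4. With the remaining livers in place of the CCl4 library, the ratio over corn oil was -0.28 (-0.29 to -0.26) and that with JT003 0.17 (0.15 to 0.18), so neither direction was kept. H2-Q10 makes up most of the nonclassical sum, which was -0.34 for HFD over SD with it and 0.12 without it, and -0.03 and 0.33 for JT003 on HFD.

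H2-T23 encodes Qa-1, which presents leader peptides of other class I molecules to inhibitory receptors. Its FPKM was 112 in SD, 129 under HFD, 150 under HFD with JT003, 128 in corn oil, 171 after CCl4 and 167 after CCl4 with JT003. The log2 ratio of its counts for CCl4 over corn oil was 0.18 (0.11 to 0.24), but -0.03 (-0.08 to 0.03) with the remaining CCl4 livers. H2-T22, whose product is bound by some gamma delta T cells, had 1185 counts in SD, 2101 under HFD, 2406 under HFD with JT003, 1369 in corn oil, 2853 after CCl4 and 2454 after CCl4 with JT003. For H2-T22 both control libraries lay below all 4 injured libraries. Its log2 ratio was 0.73 (0.63 to 0.84) when HFD was set over SD and 0.77 (0.68 to 0.86) for CCl4 over corn oil, neither past 2-fold. The latter was 1.00 with total counts and 0.62 (0.53 to 0.70) with the remaining CCl4 livers in place of the CCl4 library. Transcripts of H2-T22 and H2-T10 are alike: 37.9% of the 50-base windows of the H2-T22 transcript were also found in H2-T10. H2-T10 itself was far lower, with 94, 123, 170, 96, 172 and 180 counts in the order of libraries above, and was named after its values were seen.

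H2-Q4 to H2-Q9 are neighbours in the Qa region, and their near-identical stretches let reads be assigned to more than 1 of them. Of the 50-base windows of each transcript, 36.8% of those of H2-Q6, 40.2% of H2-Q7, 35.4% of H2-Q5 and 24.3% of H2-Q4 were also found in a transcript of another gene. Single values of these genes are therefore uncertain. No transcript was matched for H2-Q8 and H2-Q9, so their sharing was not measured. The sum of H2-Q4 to H2-Q9 was 2457 counts in SD, 2185 under HFD, 3425 under HFD with JT003, 2352 in corn oil, 3383 after CCl4 and 3102 after CCl4 with JT003. The sum had a log2 ratio of -0.26 (-0.34 to -0.18) when HFD was set over SD and 0.63 (0.55 to 0.70) for JT003 on HFD. For CCl4 over corn oil it was 0.24 (0.16 to 0.31) and for JT003 on CCl4 -0.14 (-0.21 to -0.07), and with the remaining CCl4 livers in place of the CCl4 library these were 0.01 and 0.09.

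Within that sum, H2-Q8 had the ratios farthest from 0 in the comparisons with JT003. It had 36 counts in SD, 18 under HFD, 208 under HFD with JT003, 88 in corn oil, 46 after CCl4 and 0 after CCl4 with JT003. The HFD plus JT003 library was the highest and the CCl4 plus JT003 library held no count. H2-Q8 rose by a log2 ratio of 3.37 (2.81 to 4.29) for JT003 on HFD, and was at least 15.4-fold lower in CCl4 plus JT003 than in CCl4, taking 3 counts in the library at 0 as the floor. That floor leaves out the counting error of the CCl4 library, and the interval of the log2 ratio ended at -3.59. H2-Q8 also fell for HFD over SD, with a log2 ratio of -1.01 (-1.99 to -0.24), and for CCl4 over corn oil, with -1.19 (-1.77 to -0.69), but with total counts these were -0.90 and -0.96, under 2-fold. With the remaining CCl4 livers over corn oil the ratio of H2-Q8 was -1.57 (-2.07 to -1.14).

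H2-Q7, which encodes the Qa-2 antigen, had 455 counts in SD, 245 under HFD, 456 under HFD with JT003, 398 in corn oil, 915 after CCl4 and 414 after CCl4 with JT003. The HFD library was the lowest and the CCl4 library the highest, and the other 4 lay between 398 and 456 counts. Its fall from CCl4 to CCl4 plus JT003 was past 2-fold, at -1.15 (-1.33 to -0.99), but it rests on 1 library: the remaining CCl4 livers lay -0.89 (-1.03 to -0.76) from the CCl4 library, and against them the ratio with JT003 was -0.25 (-0.42 to -0.08). H2-Q6 had 130 counts in SD, 84 under HFD, 81 under HFD with JT003, 17 in corn oil, 87 after CCl4 and 112 after CCl4 with JT003. Corn oil was the low library, and the log2 ratio of CCl4 over corn oil was 1.96 (1.31 to 2.91), or 1.91 (1.25 to 2.79) with the remaining CCl4 livers. H2-Q4, outside the rule for named genes and chosen after its values were seen, was the one of the 6 with a positive ratio for JT003 in both models, at 0.55 (0.44 to 0.67) over HFD and 0.54 (0.43 to 0.66) over CCl4. Against the remaining CCl4 livers the latter was 0.36 (0.27 to 0.45). With those livers H2-Q9 also had positive ratios in both models, at 0.43 (0.25 to 0.60) over HFD and 0.06 (-0.09 to 0.21).

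**Figure D2:**
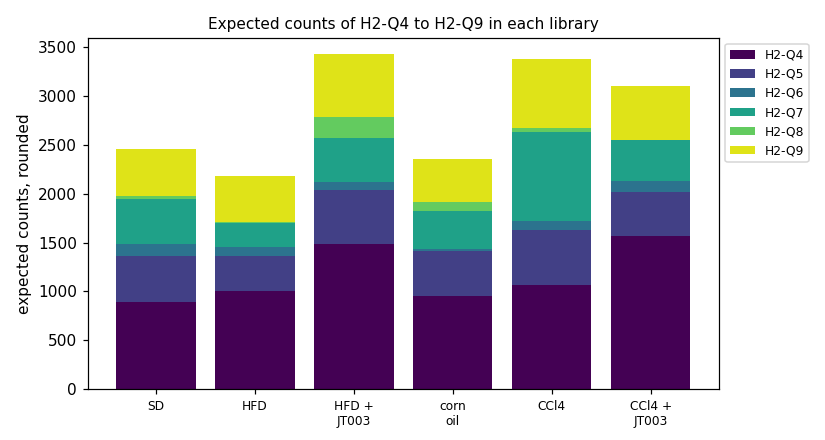
Stacked expected counts of H2-Q4 to H2-Q9, rounded (vertical axis from 0), in the 6 libraries (horizontal axis), with 1 bar per library and 1 colour per gene. The share of H2-Q8 runs from 208 counts in HFD plus JT003 to 0 in CCl4 plus JT003, while the whole bars differ less, from 2185 to 3425 counts.

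The remaining nonclassical calls rest on few counts. H2-Bl had 2 counts in SD, 11 under HFD and 9 in each of the other 4 libraries, and its log2 ratio of 1.64 for HFD over SD had an interval of 0.17 to 5.58. H2-Q2 had 17 counts in SD, 2 under HFD, 8 under HFD with JT003, 5 in corn oil, 5 after CCl4 and 3 after CCl4 with JT003, with -2.31 (-6.34 to -1.10) for HFD over SD. The other 14 nonclassical genes comprised 7 with an FPKM between 0.83 and 44.9 and 7, among them H2-M2, H2-T3 and H2-M10.2, with at most 8 counts in any library. The 7 higher ones had log2 ratios between -0.45 and 0.37 for HFD over SD, 0.27 and 0.55 for JT003 on HFD, -0.60 and 0.92 for CCl4 over corn oil, and -0.36 and 0.89 for JT003 on CCl4. The lowest for CCl4 over corn oil and the highest for JT003 on CCl4 were both H2-T24, which was at 0.21 (-0.27 to 0.73) and 0.07 (-0.36 to 0.49) with the remaining CCl4 livers, and the lowest for JT003 on CCl4 was H2-Q9, then at 0.06 (-0.09 to 0.21).

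H2-Aa, the alpha chain of the I-A molecule, had 384 counts in SD, 520 under HFD, 891 under HFD with JT003, 247 in corn oil, 500 after CCl4 and 753 after CCl4 with JT003. H2-Ab1, its beta chain, had 424, 526, 908, 231, 512 and 751 counts in the same order. H2-Eb1, which encodes the beta chain of the I-E molecule, had 288, 364, 669, 207, 411 and 606. No gene of an E alpha chain was among the 34 members, so the counts of H2-Eb1 do not show the I-E molecule itself. Within each model, all 3 genes were lowest in the control library, higher in the injured library and highest with JT003. None of them was past 2-fold in any comparison, but with total counts H2-Ab1 was at 1.09 for CCl4 over corn oil.

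Summed over the 9 class II genes, counts were 1237 in SD, 1591 under HFD, 2745 under HFD with JT003, 770 in corn oil, 1631 after CCl4 and 2397 after CCl4 with JT003. The sum was 1.21-fold higher for HFD over SD, a log2 ratio of 0.27 (0.16 to 0.38), and 1.70-fold higher for JT003 on HFD, 0.76 (0.67 to 0.85). It was 1.73-fold higher for CCl4 over corn oil, 0.79 (0.67 to 0.92), and 1.46-fold higher for JT003 on CCl4, 0.54 (0.45 to 0.64). The 4 directions were the same with total counts and with DESeq2 size factors. The remaining CCl4 livers differed from the CCl4 library by 0.07 (-0.02 to 0.15), and against them the ratio with JT003 was 0.49 (0.41 to 0.56). With JT003, 6 of 7 class II genes tested in the diet model and 7 of 8 in the fibrosis model had positive ratios. Their medians were 0.75 and 0.54, beside 0.00 and -0.01 over all genes tested.

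The class II molecules that edit peptides, H2-DM and H2-DO, were far less abundant. H2-DMa, the DM alpha chain, had 57 counts in SD, 73 under HFD, 109 under HFD with JT003, 26 in corn oil, 77 after CCl4 and 99 after CCl4 with JT003, and rose by 1.22 (0.62 to 1.98) for CCl4 over corn oil. H2-DMb2, a DM beta chain, had 6, 5, 15, 7, 12 and 12 counts, and its ratio of 1.26 for JT003 on HFD had an interval of 0.03 to 3.38. Of its 50-base windows, 26.8% were shared with H2-DMb1. H2-Oa, the DO alpha chain, had 3, 1, 8, 0, 5 and 17 counts and rose by 1.43 (0.26 to 3.55) for JT003 on CCl4, or 1.27 (0.31 to 2.60) against the remaining CCl4 livers. H2-Aa, H2-Ab1, H2-Eb1, H2-DMa, H2-Oa and H2-Ob had whole expected counts in all 6 libraries, within 0.005. H2-DMb1 and H2-Ob, the other class II genes with 10 counts or more, had ratios between 0.02 and 0.38 for HFD over SD, -0.02 and 0.54 for JT003 on HFD, -0.02 and 0.98 for CCl4 over corn oil, and 0.40 and 0.99 for JT003 on CCl4, and H2-Eb2 had at most 7 counts. The last of these values, 0.99 for H2-Ob, was 0.13 (-0.61 to 0.85) against the remaining CCl4 livers.

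**Figure D3:**
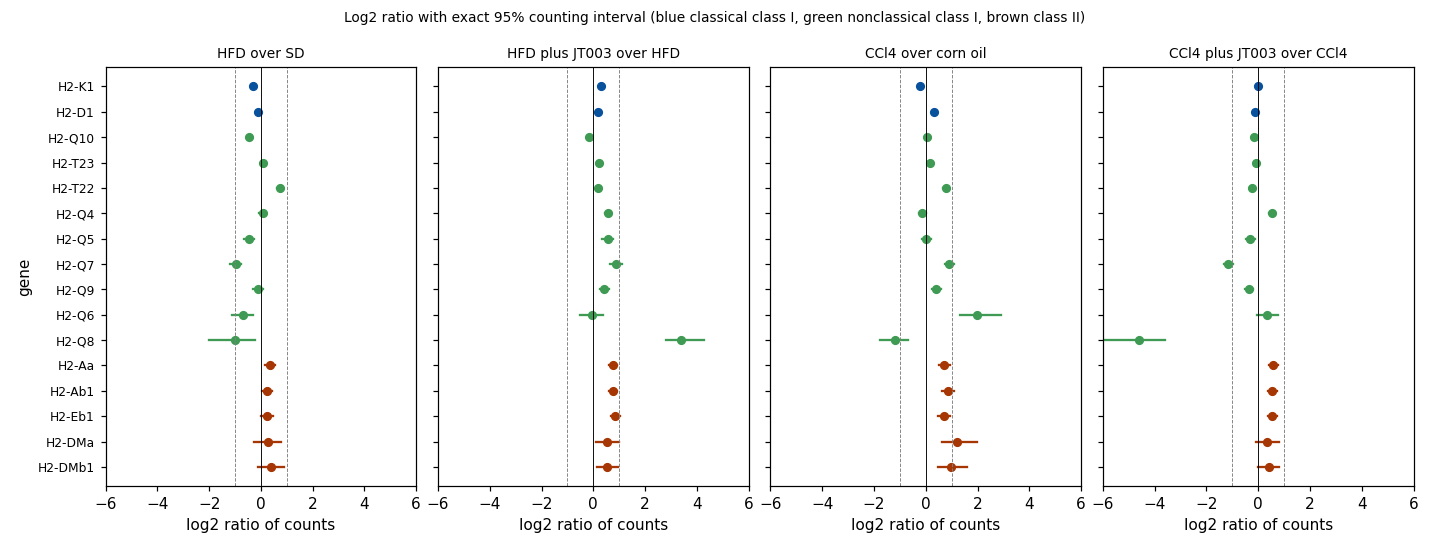
Log2 ratio of counts (horizontal axes) of 16 members (vertical axis) in the 4 comparisons, with exact 95% intervals for counting error as lines; dashed lines mark 2-fold, and the interval of H2-Q8 in the last panel runs past the left edge. In the panels with JT003 the class II genes shown lie between 0.34 and 0.85, while H2-Q8 lies at 3.37 and -4.59, the latter set by the prior count because 1 library is at 0.

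Cd74, the invariant chain that escorts class II molecules, had 1262 counts in SD, 1552 under HFD, 2582 under HFD with JT003, 763 in corn oil, 1297 after CCl4 and 1939 after CCl4 with JT003. This is the order of libraries seen for H2-Aa within each model, with log2 ratios of 0.21, 0.71, 0.48 and 0.57. Ctss, a protease that trims the invariant chain, had 513 counts in SD, 683 under HFD, 952 under HFD with JT003, 160 in corn oil, 705 after CCl4 and 762 after CCl4 with JT003, and rose by 1.84 (1.60 to 2.11) for CCl4 over corn oil. Lgmn, another lysosomal protease, had 1194, 1219, 1213, 491, 1534 and 1242 counts, and rose by 1.35 in that comparison. Ifi30, a lysosomal thiol reductase, had 290, 345, 339, 137, 395 and 431 counts and rose by 1.23 (0.96 to 1.53). With JT003 in the fibrosis model these 3 had ratios of 0.10, -0.31 and 0.11. Against the remaining CCl4 livers those of Ctss and Lgmn were -0.93 (-1.04 to -0.81) and -0.76 (-0.86 to -0.67). Cd86, a costimulatory ligand, had 37, 52, 93, 9, 19 and 41 counts and rose by 1.02 (0.28 to 1.97) for JT003 on CCl4, but the ratio was 0.17 (-0.41 to 0.75) against the remaining CCl4 livers. In all, 3 of 5 accessory genes tested rose for CCl4 over corn oil, beside 8.08% of all genes, 1 of 5 (Cd86) for JT003 on CCl4, beside 4.25%, and 0 in the diet model, while Cd80 stayed under 10 counts. With the remaining CCl4 livers 4 of 5 rose over corn oil, beside 11.3% of all genes, as Cd86 was at 1.59 (0.70 to 2.89). With JT003 0 of 5 rose against them, beside 2.48%.

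Of the regulators, Ciita is the master activator of class II genes. It had 26 counts in SD, 37 under HFD, 62 under HFD with JT003, 9 in corn oil, 24 after CCl4 and 35 after CCl4 with JT003, again lowest in the control and highest with JT003 in each model. Its log2 ratio was 0.69 (0.11 to 1.35) for JT003 on HFD and 0.50 (-0.26 to 1.35) for JT003 on CCl4, so the latter was not detectable at this depth. For CCl4 over corn oil it was 0.99, and it was past 2-fold with total counts, at 1.19, and with the remaining CCl4 livers, at 1.13 (0.20 to 2.43). Nlrc5, the corresponding activator of class I genes, had 472 counts in SD, 539 under HFD, 539 under HFD with JT003, 412 in corn oil, 324 after CCl4 and 657 after CCl4 with JT003. It rose by 1.00 (0.82 to 1.21) for JT003 on CCl4, a call that ended against the remaining CCl4 livers at 0.80 (0.65 to 0.95). The summed classical class I genes were at -0.04 (-0.06 to -0.02) for JT003 on CCl4 and at 0.37 (0.35 to 0.39) against the remaining CCl4 livers. No other of the 9 regulators, which include the RFX and NF-Y subunits, was past 2-fold in any comparison of single libraries with TMM scaling. For JT003 on CCl4, where Nlrc5 was called, 4.25% of all genes tested were higher.

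Interferon gamma is the main inducer of MHC genes. Irf1, a transcription factor of the interferon response, had 342 counts in SD, 510 under HFD, 613 under HFD with JT003, 443 in corn oil, 387 after CCl4 and 566 after CCl4 with JT003. Its log2 ratios in the 4 comparisons were 0.48, 0.24, -0.48 and 0.54. Socs1, a feedback inhibitor of the signal, was past 2-fold in both comparisons of the diet model: it had 4 counts in SD, 15 under HFD, 5 under HFD with JT003, 6 in corn oil, 11 after CCl4 and 8 after CCl4 with JT003, with 1.43 (0.17 to 3.86) when HFD was set over SD and -1.30 (-3.42 to -0.07) for JT003 on HFD. It was 1 of 8 genes of interferon gamma signalling tested. Of all genes, 5.44% were higher for HFD over SD and 1.99% lower for JT003 on HFD.

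Interferon-inducible GTPases defend cells against intracellular pathogens. For HFD over SD, 7 of 10 rose and 0 fell, beside 5.44% and 3.95% of all genes tested, with a median of 1.14 beside 0.00. The other 3, Irgm1, Igtp and Irgm2, had ratios between 0.80 and 0.98. Iigp1, the most abundant, had 3646 counts in SD, 8659 under HFD, 9882 under HFD with JT003, 3669 in corn oil, 4039 after CCl4 and 5871 after CCl4 with JT003. Gbp6 had 93, 689, 893, 129, 141 and 185 counts and the highest ratio of the 10, 2.77 (2.48 to 3.13). Gbp7 had 94, 393, 488, 128, 135 and 234 counts in the same order of libraries and rose by 1.95 (1.64 to 2.31). Gbp3 had 53, 166, 304, 47, 46 and 104 counts and rose by 1.52 (1.10 to 2.03). In both genes the HFD library with JT003 was the highest. Gbp2 had 53, 124, 307, 55, 61 and 70 counts and rose by 1.11 (0.66 to 1.63). Tgtp2 had 43, 102, 134, 21, 47 and 40 counts and rose by 1.12 (0.63 to 1.70), and Tgtp1, given below, rose by 1.58 (1.09 to 2.19). In the same comparison the summed classical class I genes were at -0.24 and the class II genes at 0.27.

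With JT003 in the diet model, 2 of these 10 rose, beside 2.07% of all genes tested: Gbp2 by 1.27 (0.98 to 1.60) and Tgtp1 by 1.26 (0.96 to 1.58), and the median was 0.36 beside 0.00. For CCl4 over corn oil 0 rose and 1 fell (Tgtp1), beside 8.08% and 4.59% of all genes tested, with a median of -0.15 beside 0.01. For JT003 on CCl4, 2 rose and 0 fell, beside 4.25% and 4.08%, with a median of 0.52 beside -0.01: Gbp3 by 1.13 (0.65 to 1.70), and Tgtp1. The medians were the same with Tgtp1 at its bound. They were 0.20 and 0.19 with the remaining CCl4 livers, beside 0.03 and -0.02 over all genes tested, and none of the 10 was past 2-fold; 8 of 10 ratios were positive over corn oil and 7 of 10 with JT003. Tgtp1 had 38 counts in SD, 125 under HFD, 306 under HFD with JT003, 55 in corn oil, 0 after CCl4 and 83 after CCl4 with JT003. It was at least 22.4-fold lower in CCl4 than in corn oil and at least 27.5-fold higher with JT003 than in CCl4, with the same floor as H2-Q8. The intervals of these log2 ratios ended at -4.14 and 4.45. Expected counts of Tgtp1 and Tgtp2 were not whole in all libraries, as when reads are divided between genes. Such sharing was not measured for them, and neither the bounds nor the intervals cover it. However, the remaining CCl4 livers held 180 counts of Tgtp1, and with them its ratios were 0.35 over corn oil and -0.06 with JT003. Gbp3 likewise had 0.33 (-0.03 to 0.69) with JT003 against the remaining livers.

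In bulk liver, fewer cells of a type and less RNA per cell cannot be told apart, so markers of the cells that carry class II were measured beside the class II genes. Kupffer cell markers (5 of 5 found, with Cd5l the most abundant by FPKM in all libraries but corn oil, where Clec4f was) summed to 3976 counts in SD, 4152 under HFD, 6005 under HFD with JT003, 845 in corn oil, 1969 after CCl4 and 4455 after CCl4 with JT003. The sum had log2 ratios of -0.03, 0.51, 0.93 and 1.17 in the 4 comparisons, so it had the sign of the class II sum in 3 of them, and for HFD over SD it was 0.10 with total counts. Of the 5 genes, 2 rose for CCl4 over corn oil, Cd5l by 1.61 (1.43 to 1.81) and Marco by 1.64 (1.18 to 2.22), beside 8.08% of all genes tested. For JT003 on CCl4, 2 rose beside 4.25%: Marco by 2.93 (2.71 to 3.19), from 161 to 1252 counts, and Timd4 by 1.53 (0.84 to 2.48). Neither was past 2-fold with JT003 against the remaining CCl4 livers, at 0.37 (0.27 to 0.47) for Marco and -0.26 (-0.74 to 0.20) for Timd4. Against the remaining CCl4 livers, the Kupffer sum with JT003 was at -0.01 (-0.07 to 0.04), while the class II sum was at 0.49 (0.41 to 0.56). With those livers over corn oil the Kupffer sum was at 2.11 (2.01 to 2.21) and the class II sum at 0.85 (0.73 to 0.96). In that comparison 4 of 5 Kupffer markers rose, beside 11.3% of all genes: Cd5l by 2.67, Marco by 4.22, Vsig4 by 1.88 and Timd4 by 1.46. Macrophage markers (6 of 6 found, Lyz2 the most abundant by FPKM) summed to 2523, 2689, 3532, 544, 2262 and 2469 counts, with ratios of 0.00, 0.37, 1.76 and 0.12, and 6 of 6 rose for CCl4 over corn oil, beside 8.08% of all genes. The 0.00 for HFD over SD sums genes that differed: Ccr2 rose by 1.57 (0.90 to 2.48), while Itgam had -0.86 and Csf1r -0.28. Ccr2 was the only 1 of 6 past 2-fold there, beside 5.44% of all genes higher. For JT003 on CCl4 the macrophage list was split too, with 3 positive and 3 negative ratios, among them Ccr2 at 0.74 and Cd68 at -0.60. Against the remaining CCl4 livers the macrophage sum with JT003 was at -0.59 (-0.66 to -0.52), with 6 of 6 ratios negative. Cd68 at -1.06 (-1.30 to -0.84) and Adgre1 at -1.21 (-1.48 to -0.96) were then past 2-fold lower, beside 5.62% of all genes.

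Dendritic cell markers (6 of 6 found) summed to 177 counts in SD, 166 under HFD, 197 under HFD with JT003, 177 in corn oil, 169 after CCl4 and 264 after CCl4 with JT003. Their ratios were -0.18, 0.22, -0.35 and 0.63, and the last was 0.32 (0.10 to 0.55) against the remaining CCl4 livers. The list was split: Itgax rose by 1.48 for HFD over SD and 2.25 for CCl4 over corn oil, while Xcr1 had -1.99 and -1.83, both past 2-fold, and Clec9a had -1.19 in the latter, or -0.22 (-0.73 to 0.29) with the remaining CCl4 livers. Of 4 tested, 1 was past 2-fold higher and 1 lower for HFD over SD, beside 5.44% and 3.95% of all genes. For CCl4 over corn oil these were 1 and 2 of 4, beside 8.08% and 4.59%. With JT003, Zbtb46 rose by 1.10 (0.47 to 1.88) over HFD, and Clec9a by 1.86 (1.30 to 2.64) and Xcr1 by 1.24 over CCl4, all past 2-fold, beside 2.07% and 4.25% of all genes tested, while Itgax had -0.44 and -0.40. Against the remaining CCl4 livers Clec9a was at 0.89 (0.50 to 1.32), no longer past 2-fold, and Xcr1 at 1.35 (0.85 to 1.94). Their most abundant gene by FPKM was Zbtb46, Clec9a, Xcr1 or Itgax depending on the library. B cell markers (4 of 5 found, Cd79a the most abundant by FPKM) summed to 34, 34, 53, 47, 63 and 99 counts, with ratios of -0.09, 0.59, 0.13 and 0.63, the first of them 0.03 with total counts. Ighm was not found, and no other marker of these 4 lists was at 0 in any library. The interval of the B cell sum left out 0 for JT003 on CCl4 alone, at 0.17 to 1.12, and against the remaining CCl4 livers the ratio was 0.23 (-0.13 to 0.60). Ms4a1 was past 2-fold on few counts, from 3 to 13, for JT003 on HFD, as 1 of 3 tested, beside 2.07% of all genes. The part of these cells in the class II result was not tested.

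Other cell types were also followed. T and NK cell markers (6 of 6 found) summed to 85 counts in SD, 95 under HFD, 100 under HFD with JT003, 56 in corn oil, 28 after CCl4 and 74 after CCl4 with JT003, and Cd3e was at 0 in the CCl4 library. Their ratios were 0.07 and 0.05 in the diet model, -1.23 (-2.00 to -0.61) for CCl4 over corn oil and 1.33 (0.75 to 2.07) for JT003 on CCl4. With the remaining CCl4 livers the latter pair was 0.08 (-0.37 to 0.55) and 0.01 (-0.41 to 0.42). Past 2-fold on few counts were Cd3e, from 1 to 10 for JT003 on HFD, and Cd8a, from 5 to 17, and Gzma, from 1 to 19, for JT003 on CCl4, the latter pair at -0.50 (-1.42 to 0.28) and 0.36 (-0.52 to 1.27) against the remaining livers. Of the T and NK markers these were 1 of 4 tested and 2 of 3 tested, beside 2.07% and 4.25% of all genes. By FPKM their most abundant gene was Cd4 in SD and HFD, Gzma in CCl4 with JT003 and Nkg7 in the other 3 libraries. Sinusoidal endothelial markers (4 of 4 found, Clec4g the most abundant by FPKM) summed to 3028, 3217, 3789, 1572, 1087 and 1730 counts, with ratios of 0.00, 0.21, -0.82 and 0.66. For HFD over SD, Lyve1 rose by 1.09 (0.82 to 1.40) while Kdr had -0.41, and for CCl4 over corn oil Kdr fell by 1.34, past 2-fold, but was at -0.42 with the remaining livers. Each was the only 1 of 4 past 2-fold, beside 5.44% of all genes higher for HFD over SD and 4.59% lower for CCl4 over corn oil. With the remaining CCl4 livers in place of the CCl4 library, the endothelial sum was at -0.15 (-0.23 to -0.06) over corn oil and -0.02 (-0.10 to 0.07) with JT003. Neutrophil markers (4 of 4 found, Ly6g the most abundant by FPKM except in CCl4 with JT003, where S100a9 was) summed to 84, 147, 186, 88, 145 and 188 counts, with ratios of 0.70, 0.31, 0.42 and 0.36. With the remaining livers the latter pair was 1.49 (1.18 to 1.84) and -0.71 (-0.95 to -0.48). Of the 4 genes, 3 were then past 2-fold higher over corn oil, beside 11.3% of all genes. With JT003, S100a8 at -1.34 (-1.98 to -0.82) and S100a9 at -1.21 (-1.65 to -0.82) were past 2-fold lower, beside 5.62%. For JT003 on HFD the list was split: Ly6g had 0.58, S100a8 -0.12, S100a9 -0.58 and Retnlg -0.43. Retnlg was past 2-fold for JT003 on CCl4, from 5 to 18 counts, but at -0.40 (-1.29 to 0.38) against the remaining livers. It was the only 1 of 4 called for JT003 on CCl4, beside 4.25% of all genes higher. Hepatocyte markers (5 of 5 found, Alb the most abundant by FPKM) summed to 1504226, 1501715, 1763190, 1593993, 1990076 and 1872382 counts. Their ratios were -0.09, 0.21, 0.03 and -0.10, and for HFD over SD 0.03 with total counts. Most of these counts are Alb, and the medians of the 5 genes were -0.43, 0.13, -0.25 and -0.22, beside 0.00, 0.00, 0.01 and -0.01 over all genes tested. For HFD over SD, Cps1 fell by 1.15, past 2-fold, beside 3.95% of all genes lower, while Apoa1 had -0.79, Serpina1a -0.43, Alb 0.05 and Ttr 0.14. In that comparison H2-Q10 was at -0.47 and the summed classical class I genes at -0.24. The part of these cells in the class I and interferon results was not tested.

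All 32 members with a RefSeq gene entry lie on chromosome 17. Promoters were available in RefSeq (build GRCm38.p6) for 24 members, and the 250 bases before each gene start were searched on both strands for 4 motifs of MHC promoters, chosen after the sequences had been seen. The motifs were GGGATTCCC (a kappa B site), TTTCNNTTC (an interferon response element), TGACG (as in the X2 box) and ATTGG (the Y box, bound by NF-Y), and in the stretches shown no match overlaps that of a different motif, while in H2-Aa the TGACG matches of both strands overlap. Of all 27025 promoters of that length, 0.311%, 6.34%, 17.9% and 34.5% held them. Both classical promoters, of H2-K1 and H2-D1, held all 4. Of 14 nonclassical promoters, 2 held GGGATTCCC, 6 TTTCNNTTC, 6 TGACG and 11 ATTGG. Of 8 class II promoters, 0 held either of the former 2 motifs, 1 held TGACG and 7 held ATTGG. Only the letters given were counted, so a promoter without a match can still hold a related element.

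The stretches below show the class I genes of highest level, whose log2 ratios differed, and 2 class II genes that moved together, with motif matches in capitals. H2-K1 lies at chr17:34000348-34000477 on the minus strand, H2-D1 at chr17:35262904-35263038 on the plus strand, H2-Q10 at chr17:35469894-35470028 on the plus strand, H2-Aa at chr17:34287852-34287931 on the minus strand and H2-Eb1 at chr17:34305748-34305827 on the plus strand. A match is a description of letters, not of a bound site.
H2-K1: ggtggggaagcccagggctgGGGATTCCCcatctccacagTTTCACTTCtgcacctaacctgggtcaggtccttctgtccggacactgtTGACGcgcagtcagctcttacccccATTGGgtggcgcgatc
H2-D1: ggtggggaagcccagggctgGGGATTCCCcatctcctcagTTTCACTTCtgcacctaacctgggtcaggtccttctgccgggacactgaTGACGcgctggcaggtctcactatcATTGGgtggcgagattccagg
H2-Q10: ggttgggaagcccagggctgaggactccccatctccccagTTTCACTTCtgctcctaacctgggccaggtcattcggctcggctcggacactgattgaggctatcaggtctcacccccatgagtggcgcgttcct
H2-Aa: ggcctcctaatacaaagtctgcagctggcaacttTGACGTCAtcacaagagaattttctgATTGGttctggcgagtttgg
H2-Eb1: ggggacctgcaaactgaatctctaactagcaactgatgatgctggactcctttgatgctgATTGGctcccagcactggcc

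In the stretch shown, H2-Q10 held the TTTCNNTTC match of H2-K1 and H2-D1 and none of the other 3 motifs. In the order H2-Q10, H2-K1 and H2-D1, the ratios were -0.47, -0.30 and -0.12 for HFD over SD and -0.17, 0.28 and 0.19 for JT003 on HFD. They were 0.05, -0.24 and 0.31 for CCl4 over corn oil and -0.16, 0.01 and -0.11 for JT003 on CCl4, so in the former of these H2-Q10 lay between the other genes. H2-Aa held TGACG on both strands, and H2-Eb1 held only ATTGG, while their ratios with JT003 were 0.75 and 0.85 in the diet model and 0.58 and 0.55 in the fibrosis model.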

How the data were processed

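Liver RNA of 6 conditions was sequenced on a BGISEQ-500 platform with 1 library per condition. The submitters' processing notes name HISAT, Bowtie2, RSEM and the mm9 build, with no role. The authors deposited expected counts (estimated reads per gene, not normalized, which need not be whole), and the authors also gave FPKM values, scaled to transcript length and library total; a gene with no read is not listed and was taken as 0. The expected counts were rounded to whole numbers. TMM factors were computed over the 3 libraries of each model (edgeR 4.0.16, R 4.3.3), so no ratio was taken between models. Each log2 ratio used a prior count of 2, with an exact 95% Clopper-Pearson interval of the 2 libraries' counts (scipy 1.17.1). No p-value is reported, since the libraries are unreplicated, and an exact binomial test between libraries with an adjusted p under 0.001 served only as an alternative call rule. The calculation was tested on simulated data. Alternatives were total counts, DESeq2 1.42.0 size factors, other filters, prior counts, folds and call rules, FPKM plus 1, and the authors' pooled CCl4 counts.

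The 4 comparison tables hold fold changes and p-values of the authors, which were not used; 7 of their other expression columns were not used either. Values in all libraries are given for members past 2-fold in at least 1 comparison, for the 3 members of each class with the highest mean FPKM, for B2m, Tap1, Psmb8, Cd74, Nlrc5, Ciita and Irf1, and for other listed genes past 2-fold; another gene named by the rule is not reported here. Marker genes are given by their sums, and the single ones named were chosen after their values were seen. The members and lists were chosen with earlier results of these data known. Shared windows of 50 bases were counted in GENCODE transcripts, matched by RefSeq identifier for 30 members. Promoters were matched by gene identifier. Coordinates are of GRCm38.p6 and not of the build of the counts.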

Additional observations from a re-analysis of the deposited data

Results flagged for a closer look

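The ratios of some members pointed in opposite directions in the diet and fibrosis models, each with a counting interval that left out 0. Each model has 1 library per condition, so the differences were not tested against the spread between mice. For JT003, the ratio over HFD less the ratio over CCl4 was 7.96 for H2-Q8 (3.37 and -4.59, the latter set by the prior count since 1 library is at 0), 2.02 for H2-Q7 (0.87 and -1.15), 0.86 for H2-Q5 (0.55 and -0.31) and 0.79 for H2-Q9 (0.43 and -0.36). It was 0.40 for H2-T22 (0.17 and -0.23), 0.30 for H2-D1 (0.19 and -0.11) and 0.29 for H2-T23 (0.20 and -0.09). Against the remaining CCl4 livers the fibrosis-model ratios of H2-D1, H2-T23 and H2-Q9 were 0.22, 0.11 and 0.06, so the signs were no longer opposite. Those of H2-Q8, H2-Q7, H2-Q5 and H2-T22 were still negative, at -4.83 (again set by the prior count), -0.25, -0.28 and -0.08. For H2-Q7 and H2-T22 they were much smaller in size than with the CCl4 library. Counting intervals do not cover the sharing of reads described above, so single values of H2-Q4 to H2-Q9 are uncertain. With JT003 the sum of H2-Q4 to H2-Q9 was at 0.63 over HFD and -0.14 over CCl4, or 0.09 against the remaining CCl4 livers.

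For the injury itself, the ratio of HFD over SD less that of CCl4 over corn oil was -2.67 for H2-Q6 (-0.71 and 1.96), -1.89 for H2-Q7 (-0.98 and 0.91), -0.52 for H2-Q10 (-0.47 and 0.05) and -0.43 for H2-D1 (-0.12 and 0.31). With the remaining CCl4 livers in place of the CCl4 library, H2-Q6 was at 1.91 in the fibrosis model, H2-Q7 at 0.00, H2-Q10 at -0.28 and H2-D1 at -0.03. These differences were not tested either.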

How the results depend on the processing

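The class II sum was higher in all 4 comparisons under every scaling tried, on the FPKM plus 1 scale and, in the fibrosis model, with both forms of the pooled CCl4 counts; it passed 2-fold for CCl4 over corn oil with total counts (1.03) and FPKM plus 1 (1.01). The class I sums changed direction under some alternatives. The classical sum for CCl4 over corn oil (-0.03) turned to 0.20 with total counts and with FPKM plus 1, but not with pooled (-0.30) or remaining CCl4 counts (-0.45). For JT003 on CCl4 (-0.04) it turned to 0.03, 0.03, 0.22 and 0.37 in that order. The nonclassical sum turned to -0.09 and -0.20 for CCl4 over corn oil with pooled and remaining counts, 0.04 and 0.14 for JT003 on CCl4, and, without H2-Q10, 0.12 for HFD over SD and 0.33 for JT003 on HFD. The sum of H2-Q4 to H2-Q9 was 0.01 and 0.09 for JT003 on CCl4 with pooled and remaining counts. Tgtp1 was 0.35 and -0.06 with the remaining counts. The use of remaining counts and the H2-Q4 to H2-Q9 sum were chosen after seeing the data.

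Counts of calls depended on the rule, given here as members and then all genes. Requiring 100 counts, which leaves fewer genes, gave 0 members higher and 0 lower for HFD over SD (364 and 331 genes), 1 and 0 for JT003 on HFD (89 and 99), 0 and 0 for CCl4 over corn oil (551 and 280), and 0 and 1 for JT003 on CCl4 (223 and 308). A fold of 1.5 gave 2 and 4 (1452 and 1182), 6 and 0 (698 and 705), 9 and 1 (1965 and 1422) and 3 and 2 (1445 and 1338) in the same order. FPKM plus 1 gave 0 and 0 (340 and 203), 1 and 0 (64 and 86), 3 and 0 (612 and 151) and 0 and 2 (171 and 220). The exact binomial test gave 0 and 1 (504 and 423), 1 and 0 (132 and 156), 2 and 1 (831 and 430) and 0 and 2 (334 and 446). Total counts gave 1 and 1 (898 and 427), 2 and 0 (281 and 266), 7 and 0 (1581 and 404) and 2 and 2 (709 and 492). For CCl4 over corn oil the share of calls that were higher was 63.8%, against 79.6% with total counts and 80.2% with FPKM plus 1. A prior count of 0.5 gave 2 and 2 for JT003 on CCl4 (632 and 579). For CCl4 over corn oil, pooled and remaining CCl4 counts each gave 4 and 1 (1532 and 519 genes with pooled, 1652 and 551 with remaining counts), and for JT003 on CCl4 each gave 1 and 1 (338 and 723, 362 and 820). Apart from the filter, the cause was not tested. The main counts were 1 and 2 (725 and 527), 2 and 0 (279 and 268), 2 and 1 (1099 and 624), and 1 and 2 (586 and 562). No paired analysis was possible because each condition has 1 library. Under the alternatives, 137 values of sums and counts of calls kept their direction and side of the threshold, or for counts stayed within 1.5 times, while 12 reversed, 42 were weaker and 21 stronger. Of single genes, 521 values did so, while 4 reversed, 30 were weaker, 12 stronger and 20 changed sign without being past 2-fold. Members under 100 counts, among them H2-Q2, H2-Bl, H2-Oa and H2-DMb2, have intervals that reach many-fold, which limits what their calls show.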
